A study of Mus musculus with 2 samples.

Results

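The regions described here are the distal 3'UTRs of at least 1000 and under 2500 bp in mTEChi, the medullary thymic epithelial cells with high MHC class II. A distal 3'UTR (d3'UTR) is the piece of a last exon that lies beyond the most proximal annotated poly(A) site (pA), and members were all transcripts with such a piece of the stated length and with a counted upstream piece of the same last exon. There were 2704 such transcripts of 8740 with any distal 3'UTR (30.9%). Where a gene had several such transcripts, the one with the most last-exon reads stood for it, which left 2034 members of 6610 regions over all lengths. The median member had a distal part of 1542.0 bp and an upstream part of 576.0 bp. No member was chosen for its reads or its change.

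Both libraries came from a single lentigenic B6 mouse that had integrated 2 constructs delivered by a single lentivector, one with 3 shRNAs against Clp1 and the ZsGreen reporter behind the doxycycline-inducible promoter TRE3G, the other with the TetOn3G transactivator behind the EF1 promoter. Doxycycline was given in the food (2 g/kg) from the age of 3 weeks, for 2 weeks, so both sorted populations were exposed to it and shared the animal and its integrations. Cells with the reporter (GFP plus) gave the Clp1 knockdown library and cells without it (GFP minus) gave the Ctr library. The knockdown is therefore a comparison of 2 sorted fractions of 1 thymus, from the pup described as showing a Clp1 reduction, and with 1 library per group no difference has a replicate check and no p-value is given. Intervals are exact 95% intervals of counting error only, because reads amplified by PCR without molecular identifiers are not independent molecules.

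Poly(A) sites are where the nascent transcript is cut and a poly(A) tail is added. The machinery recognises a hexamer a short way upstream of the cut, most often AATAAA and less often ATTAAA, and a gene with several sites makes mRNAs that share a protein and differ in the length of their 3'UTR. Long 3'UTRs hold more sites for microRNAs and RNA-binding proteins, which act on stability, translation and location of the mRNA. Clp1 is a kinase subunit of cleavage factor II, part of that machinery, and mTEChi are the cells in which Aire switches on genes of peripheral tissues. The comparison asked whether the share of long 3'UTRs differed between cells with less Clp1 mRNA and cells without the reporter, at each level of reads.

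The libraries held 28464803 (Ctr) and 37524730 (Clp1 knockdown) transcript reads. Clp1 itself had 1573 and 812 reads, 39.7% of the Ctr level after scaling for depth. All 10 mTEChi markers, among them Aire and the MHC class II gene H2-Aa, were detected in both libraries, with summed scaled reads of 462392 and 482853, although 4 of them stood higher and 1 lower by 2-fold or more in the knockdown library. Markers of other cells were lower in the knockdown library. Summed over each list, the change ranged from a log2 of -1.46 (B cells, 5 of 5 lower) to -4.90 (red cells, 4 of 4 lower), with endothelium (5 of 5), fibroblasts (6 of 6) and thymocytes (6 of 7) between, while dendritic cells and macrophages stood at 0.26 with 4 of 6 lower. No defining marker of any list was at 0 in either library. The part of these cells in the results was not tested.

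The bases before both sites are shown for the members on which the results turn, as 30-base windows that end at the proximal site or at the annotated end of the transcript, read 5' to 3' on the transcript strand from the NCBIM37 (mm9) genome. Capitals mark the AATAAA nearest the site or, where there is none, the ATTAAA. Cep41 and Btaf1 have a hexamer before both sites and moved in opposite directions, Gga2 and Phf11d had 0 and 1 distal reads in the knockdown, Ube2q1 has a hexamer before the annotated end only, and Cdc42 is among the members with the most reads.
Cep41, proximal site: gttgtttactcaAATAAAtgcccccctcct
Cep41, annotated end: atgttgaagATTAAAgaacgtagttactaa
Btaf1, proximal site: tccacaagagAATAAAcatcaaattgtaaa
Btaf1, annotated end: aatcAATAAAaacttgagttttgctaccaa
Gga2, proximal site: agaacatcattgAATAAAtactgtgttcag
Gga2, annotated end: tttctaaaccaAATAAAgctgaatttctta
Phf11d, proximal site: tagcacacttAATAAAtgcttgtcaaaacc
Phf11d, annotated end: taaaacttaAATAAAaaattcacaacttaa
Ube2q1, proximal site: tgggaaaacaattacagtttgttaatttga
Ube2q1, annotated end: atagtttggctctAATAAActtatttaaag
Cdc42, proximal site: tttaaatcaaactaaagattaaaaATTAAA
Cdc42, annotated end: tATTAAAcaaacaaaacccttcacaagtga
The proximal windows are chr6:30605664-30605693 (Cep41, minus strand), chr19:37087217-37087246 (Btaf1, plus), chr7:129132280-129132309 (Gga2, minus), chr14:59967570-59967599 (Phf11d, minus), chr3:89586636-89586665 (Ube2q1, plus) and chr4:136876931-136876960 (Cdc42, minus). The windows at the annotated end are chr6:30603457-30603486 (Cep41), chr19:37088518-37088547 (Btaf1), chr7:129130236-129130265 (Gga2), chr14:59966244-59966273 (Phf11d), chr3:89587890-89587919 (Ube2q1) and chr4:136875611-136875640 (Cdc42). All lie in the 3'UTR part of the last exon of their gene.

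Of the 2034 members, 1221 (60.0%) could be placed on the genome by the length of their last exon. In the 40 bases before the proximal site AATAAA was found in 34.6% of these and ATTAAA in 16.5%, with both in 1.23% and neither in 50.2%. Before the annotated end the shares were 62.4% and 20.3%, and 20.5% held neither. The middle of the distal part served as a background of the same length, where AATAAA stood in 2.21% and ATTAAA in 1.97%. On the opposite strand of the proximal windows, AATAAA stood in 5.65% and ATTAAA in 4.59%, and at the annotated end these shares were 5.73% and 5.32%. Both sites of the members thus held the hexamers more often than the distal sequence between them, and the annotated end more often than the proximal site. The share of proximal windows with AATAAA was 48.9% in regions under 200 bp, 42.5% at 200 to under 1000 bp and 32.7% at 2500 bp or more. Median GC content was 42.9% in the distal part of members and 46.8% in the upstream part.

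The d3'UTR ratio is the read density (reads per bp) of the distal part over that of the upstream part in the same library, so sequencing depth cancels. A ratio near 1 means equal coverage of both parts, and a ratio near 0 means almost no reads beyond the proximal site. Over all members with any upstream read the median ratio was 0.51 in Ctr (0.474 to 0.548, n = 1844) and 0.527 in the Clp1 knockdown (0.498 to 0.567, n = 1949), where the interval is that of a median across regions and not across replicates. The middle 50% of members lay between 0.128 and 1.0 in Ctr and between 0.174 and 0.995 in the knockdown. The 2 distributions overlapped over nearly their whole range. A ratio under 0.25 was seen in 34.1% of members in Ctr and 31.6% in the knockdown, and a ratio over 1 in 25.1% and 24.9%. Of the other length classes, only that of 200 to under 1000 bp had a higher median than the members, in the knockdown. At 200 to under 1000 bp the medians were 0.491 (Ctr) and 0.543 (knockdown), at 2500 bp or more 0.356 and 0.376, and under 200 bp 0.0207 and 0.0484.

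Read level changed the picture more than the library did. Levels were set by last-exon reads summed over both libraries. At 1000 reads or more the median ratio was 0.609 in Ctr and 0.602 in the knockdown, over 915 and 916 members. At 100 to under 1000 reads it was 0.398 (n = 832) and 0.472 (n = 884). At 20 to under 100 reads it was 0.0102 (n = 84) and 0.342 (n = 127). The library medians were close where reads were many and far apart where reads were few. At the lowest of these levels a member had a median of 14.0 last-exon reads in Ctr and 33.0 in the knockdown, and 46.4% of members in Ctr had no distal read against 19.7% in the knockdown. A further 61 members in Ctr and 18 in the knockdown had no upstream read and so no ratio. Any last-exon reads of these were distal, and the library medians at this level thus rest on different members. In the 72 members with a ratio in both libraries the medians were 0.00912 and 0.169. The same spread by level was seen in all length classes together, with 0 and 0.168 at 20 to under 100 reads and 0.497 and 0.492 at 1000 or more.

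**Figure D1:**
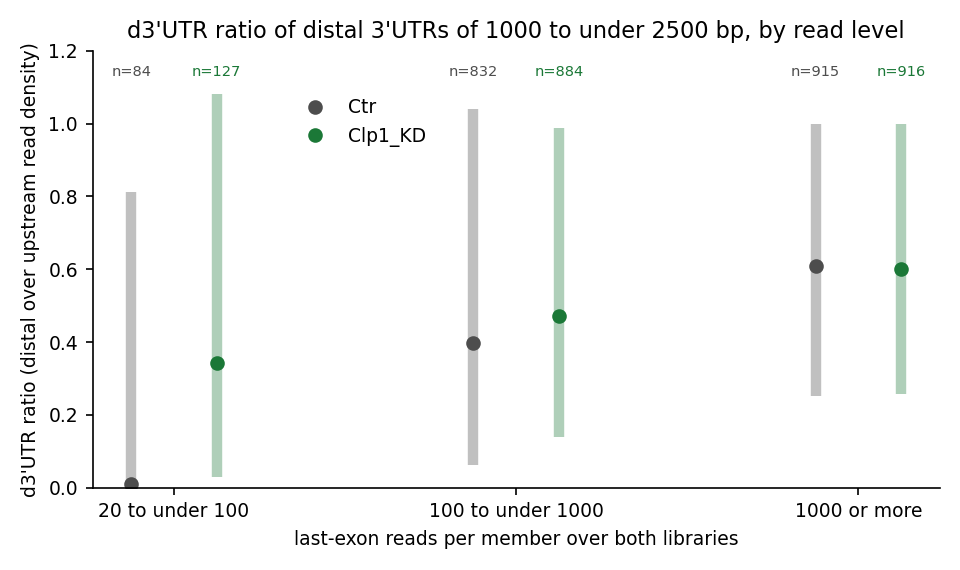
Median d3'UTR ratio (dots) and the range of the middle 50% of members (bars) in each library, on the vertical axis, by last-exon reads over both libraries, on the horizontal axis; n is the number of members that had a ratio there. The medians differ at 20 to under 100 reads (0.0102 in Ctr and 0.342 in Clp1_KD) and lie side by side at 1000 reads or more (0.609 and 0.602).

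Each member was then compared with itself. The change is the log2 of the knockdown ratio over the Ctr ratio after 0.5 reads were added to each part, with an exact conditional interval. A member was called higher or lower when it changed at least 2-fold and the interval excluded 0. Of the 2034 members, 1963 (96.5%) had at least 20 last-exon reads and were measured, 55 had 1 to 19 reads and 16 had none. The median change over measured members was 0.00 (-0.04 to 0.04), with the middle 50% between -0.61 and 0.69. The ratio was higher in the knockdown in 302 members (15.4%) and lower in 287 (14.6%), and 1374 were not called. Over all distal 3'UTRs, members included, 13.2% of 6257 were called higher and 12.3% lower. The members' shares were close to those of all regions, and near equal in both directions. With 5'UTR and earlier exons as the reference in place of the upstream part, 378 were higher and 267 lower of 1928 members. The shares over all regions with that reference are not given. Some members rest on the same reads, since 56 measured members formed 19 sets with the same 4 counts, the largest being 14 clustered protocadherin genes that share a last exon. With 1 member per set, 300 were higher and 272 lower of 1926.

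The calls followed the read level as well. At 20 to under 100 reads 13.1% of 145 members were higher and 15.9% lower, at 100 to under 1000 reads 23.6% and 21.7% of 902, and at 1000 or more 7.64% and 7.42% of 916. For all distal 3'UTRs the same shares were 8.54% and 10.3%, 18.4% and 17.0%, and 8.28% and 7.43%. The standard deviation of the change across members fell from 4.21 at the lowest of these levels to 2.80 and then 1.11. Well covered members thus differed least between the libraries, and their own intervals were the narrowest. Median changes were -0.26 (-0.66 to 1.05), -0.02 (-0.16 to 0.09) and 0.01 (-0.02 to 0.05) in the 3 levels, none with an interval that left out 0. At 20 to under 100 reads the interval of the median change lay on both sides of 0, although the library medians were far apart. The change covers all 145 members there, whereas the library medians leave out those without an upstream read (61 in Ctr and 18 in the knockdown).

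**Figure D2:**
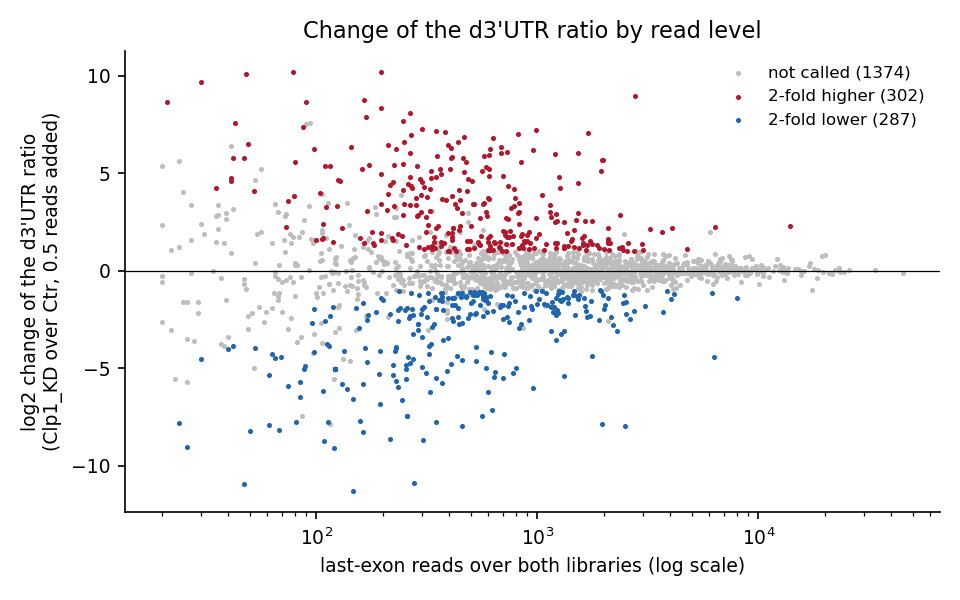
Log2 change of the d3'UTR ratio (Clp1_KD over Ctr, 0.5 reads added to each part) on the vertical axis against last-exon reads over both libraries on the horizontal log axis, 1 point per measured member. Red points were called higher (302), blue points lower (287) and grey points were not called (1374), and the cloud narrows around 0 as reads increase.

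The ratio of a member in Ctr ordered its ratio in the knockdown, more closely with more reads. Across members with a ratio in both libraries, Spearman's rho was 0.91 over 915 members with 1000 reads or more, 0.66 over 817 with 100 to under 1000 and 0.22 over 72 with 20 to under 100. These are descriptions across regions that share the same 2 libraries. Of 607 members under 0.25 in Ctr, 75.0% stayed under 0.25 in the knockdown, and of 450 at 1 or more in Ctr, 62.0% were at 1 or more in the knockdown. Crossing from one extreme to the other was rare among members with upstream reads in both libraries. Measured members without an upstream read, 132 in Ctr and 36 in the knockdown, have no ratio there and are not in these counts. A ratio under 0.25 in Ctr and of 1 or more in the knockdown was seen in 25 of 1804 members (1.39%) and the reverse in 19 (1.05%), and none of the 915 members with 1000 reads or more did either.

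**Figure D3:**
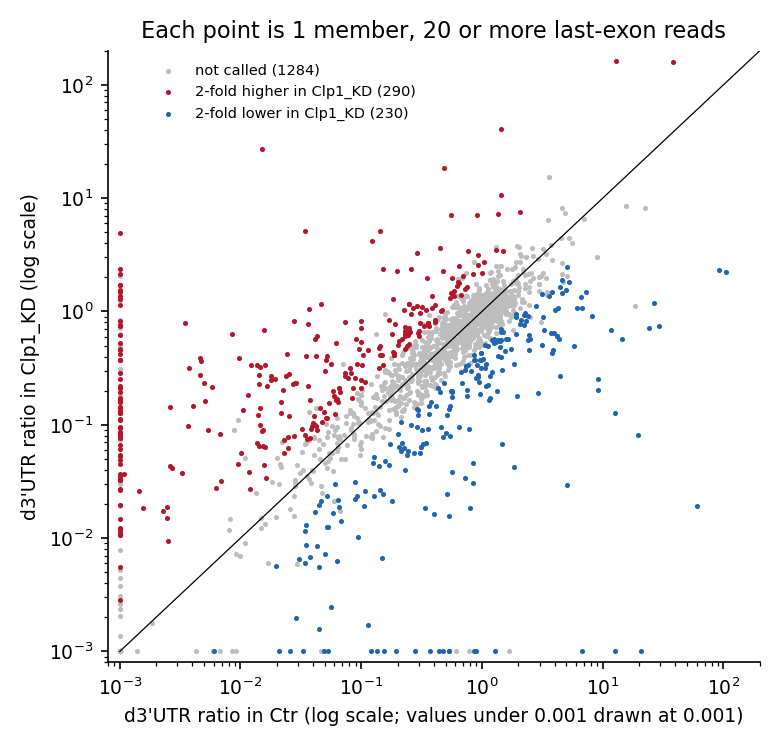
d3'UTR ratio in the Clp1 knockdown against that in Ctr, both on log axes, for the 1804 measured members with upstream reads in both libraries; values under 0.001 are drawn at 0.001. Of these points 290 were called higher (red), 230 lower (blue) and 1284 were not called (grey), and calls lie on both sides of the diagonal.

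In members with at least 100 reads, the 2 parts of the exon did not move in the same manner in higher and lower calls. Where the ratio was higher (283 members), scaled distal reads had a median log2 change of 2.30 and upstream reads of -0.21. Where it was lower (264 members), distal reads changed by -1.04 and upstream reads by 1.03. In uncalled members both parts had a median of 0.14. The distal part moved more than the upstream part in 76.3% of the higher and 50.4% of the lower members.

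The 5 members with the most reads had between 23515 and 44997 last-exon reads and none was called. Btg2, an antiproliferative factor that recruits deadenylases, had a ratio of 0.44 (0.43 to 0.451) in Ctr and 0.4 (0.389 to 0.412) in the knockdown. Dstn, an actin-severing protein, had 0.889 and 0.92. Cdc42, a small GTPase of cell polarity with a well known alternative last exon, had 1.04 and 1.07. The cargo receptor gene Surf4 had 0.73 and 0.696, and Aplp2, of the amyloid precursor family, 1.28 and 1.24. In all 5 the libraries lay within a change of 0.14 on the log2 scale, and only the interval of Btg2 (-0.19 to -0.08) left out 0.

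Among members with at least 100 reads, the 10 higher calls whose interval lay farthest from 0 had between 165 and 2766 last-exon reads, and 9 of them had fewer than 1000. Mrpl57, a mitochondrial ribosome protein, had 1225 upstream and 0 distal reads in Ctr against 1281 and 260 in the knockdown. Its ratio was at least 66.6-fold higher. Here and in the other genes with an empty part, the bound is the near end of the exact interval, which in each of them was lower than the fold with a floor of 3 reads in the empty part. After scaling for depth, upstream reads of Mrpl57 changed by -0.31 on the log2 scale. Prune2, a large protein with a BCH domain (mm9 chromosome 19, 17296155 to 17298422), had 52 upstream and 2 distal reads in Ctr and 2 and 140 in the knockdown. In this case the 2 parts exchanged their reads, from a ratio of 0.0149 (0.00176 to 0.0568) to 27.2 (7.39 to 227.0). Adgrl1, an adhesion receptor, went from 0.0346 (0.017 to 0.0629) to 5.12 (2.95 to 9.51), with 260 upstream and 11 distal reads in Ctr and 15 and 94 in the knockdown.

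Cep41, a ciliary centrosome protein (chromosome 6, 30603457 to 30605663, minus strand), had 12 upstream and 0 distal reads in Ctr and 8 and 145 in the knockdown, at least 38.8-fold higher. Usp24, a ubiquitin protease, had 106 and 1 reads in Ctr and 62 and 133 in the knockdown, a change of 7.24 (5.23 to 13.07). Ube2q1, a ubiquitin-conjugating enzyme (chromosome 3, 89586666 to 89587919), had 249 and 3 reads in Ctr and 247 and 232 in the knockdown, from a ratio of 0.00468 (0.000958 to 0.0138) to 0.365 (0.304 to 0.438). Scaled upstream reads of Ube2q1 changed by -0.39 on the log2 scale and distal reads by 5.89. Klhl15, an adaptor of cullin 3 ligases, had 89 and 0 reads in Ctr and 70 and 105 in the knockdown, at least 33.6-fold higher.

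The remaining 3 of these 10 were on the study's list of Aire-sensitive genes, beside 104 of all 1818 members with at least 100 reads. Whether these shares differ was not tested. Fam107a, an actin-associated protein, had 91 upstream and 0 distal reads in Ctr and 38 and 67 in the knockdown (at least 38.8-fold higher). Sall3, a zinc finger transcription factor, had 54 and 0 in Ctr and 36 and 78 in the knockdown (at least 27.9-fold). Clec14a, an endothelial C-type lectin, had 197 and 33 reads in Ctr and 0 and 17 in the knockdown (at least 22.7-fold). Reads upstream of the last exon were few for all 3, at most 32 in Ctr and 4 in the knockdown. Clec14a is expressed in endothelium, whose markers were lower in the knockdown library in 5 of 5 cases, and its last exon went from 230 reads to 17.

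The 10 lower calls had between 108 and 2482 reads, and 8 had fewer than 1000. Gga2, a clathrin adaptor of the Golgi (chromosome 7, 129130236 to 129132279, minus strand), had 1178 upstream and 123 distal reads in Ctr and 1181 and 0 in the knockdown. Its ratio was at least 32.8-fold lower, with AATAAA before both sites, as printed above. Mesd, a chaperone of lipoprotein receptors (chromosome 7, 91047688 to 91050042), had 492 and 40 reads in Ctr and 1431 and 0 in the knockdown, at least 29.9-fold lower. Phf11d, a PHD finger protein (chromosome 14, 59966244 to 59967569, minus strand), had 131 and 106 reads in Ctr and 321 and 1 in the knockdown, from a ratio of 0.195 (0.149 to 0.253) to 0.000749 (1.89e-05 to 0.00421). In these 3 genes at most 1 distal read was left in the knockdown, while scaled upstream reads changed by -0.37 (Gga2), 1.16 (Mesd) and 0.91 (Phf11d) on the log2 scale.

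Btaf1, an ATPase that removes the TATA-binding protein from DNA (chromosome 19, 37087247 to 37088547), had 5 upstream and 86 distal reads in Ctr and 238 and 17 in the knockdown. Its ratio went from 19.8 (8.15 to 62.5) to 0.0821 (0.0471 to 0.134), so both parts moved. Smyd3, a lysine methyltransferase, had 39 and 78 reads in Ctr and 98 and 0 in the knockdown (at least 47.7-fold lower). The zinc finger gene Zc2hc1c (chromosome 12, 86637899 to 86640308) had 0 upstream and 27 distal reads in Ctr and 72 and 9 in the knockdown, at least 42.1-fold lower. Its reads upstream of the last exon went from 6 to 185. Gcsam, an adaptor of germinal centre B cells (chromosome 16, 45621347 to 45622980), went from 12.7 (4.06 to 63.7, 3 upstream and 44 distal reads) to 0 of 100 last-exon reads, which allows a ratio of up to 0.0324. B cell markers were lower in the knockdown library (5 of 5), whereas last-exon reads of Gcsam went from 47 in Ctr to 100 in the knockdown. The part of B cells in this value was not tested.

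Of the 10 lower calls, 3 were Aire-sensitive, beside 104 of all 1818 members with at least 100 reads, and this difference was not tested either. Cntn2, a neural cell adhesion molecule (chromosome 1, 134406002 to 134408376, minus strand), had 5 upstream and 186 distal reads in Ctr and 84 and 1 in the knockdown, from a ratio of 60.1 (25.3 to 187.0) to 0.0192 (0.000481 to 0.11). It had 0 reads upstream of the last exon in Ctr and 55 in the knockdown, so that in Ctr its reads lay almost wholly in the distal part. Phyhipl had 0 upstream and 129 distal reads in Ctr and 108 and 67 in the knockdown (at least 52.5-fold lower), and likewise 0 and 62 reads upstream of the last exon. Ifi213, an interferon-inducible DNA-sensor family gene (chromosome 1, 175522088 to 175523837, minus strand), had 23 and 106 reads in Ctr and 33 and 0 in the knockdown (at least 34.5-fold lower).

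To see members with more reads, the 5 higher and 5 lower calls with the farthest intervals among those with 1000 reads or more were looked up, a choice made after the values were seen. Besides Mrpl57 the higher ones were Fundc2, a protein of the outer mitochondrial membrane (0 distal of 915 last-exon reads in Ctr, 52 of 771 in the knockdown, at least 17.2-fold), Mrpl41, Sec22a and Plpbp. Mrpl41, also a mitochondrial ribosome protein, had a ratio of 0.00047 (1.19e-05 to 0.00263) in Ctr and 0.0453 (0.0364 to 0.0558) in the knockdown. Sec22a, a protein of early secretory transport, had 0.000713 (1.8e-05 to 0.00399) and 0.0669 (0.0534 to 0.083). Plpbp, a pyridoxal phosphate binding protein, had 0 distal reads in Ctr and 0.0326 (0.0242 to 0.0432) in the knockdown. In all 5 the ratio was at most 0.126 in either library (Fundc2 in the knockdown), so most reads remained in the upstream part.

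Besides Gga2 and Mesd, the lower ones were the transcription factor gene Cebpg, Lsm1 and Gda. Cebpg had a ratio of 0.148 (0.117 to 0.186) in Ctr and 0.00664 (0.00303 to 0.0126) in the knockdown, with 79 and 9 distal reads. Lsm1, a subunit of the ring that activates mRNA decapping (chromosome 8, 26912999 to 26914447), had 0.0566 (0.046 to 0.0692) and 0.00245 (0.000795 to 0.00575), with 111 and 5 distal reads. Gda, which encodes guanine deaminase (chromosome 19, 21465797 to 21467538, minus strand), went from 3.77 (3.11 to 4.59) to 0.434 (0.389 to 0.485). Gda had 144 upstream and 428 distal reads in Ctr and 1276 and 437 in the knockdown, so that after scaling the upstream reads changed by 2.77 on the log2 scale and the distal reads by -0.35.

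**Figure D4:**
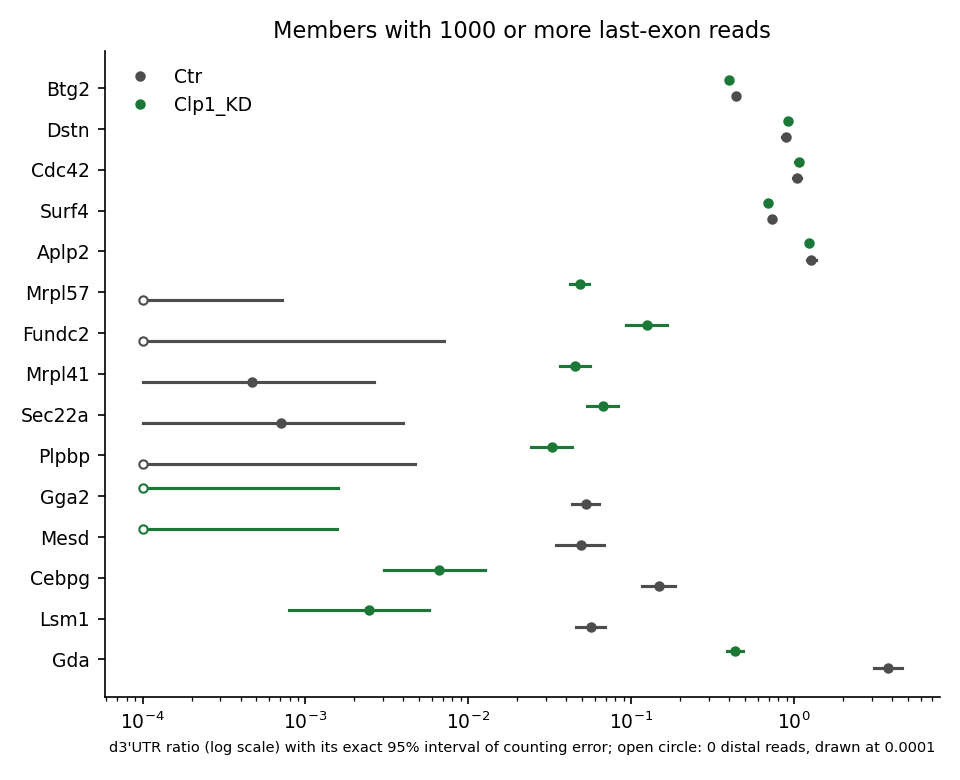
d3'UTR ratio with its exact 95% interval of counting error, on a log axis, for the 5 members with the most reads (top) and for the 5 higher and 5 lower calls with the farthest intervals among members with at least 1000 last-exon reads; open circles are 0 distal reads, drawn at 0.0001, where intervals that reach lower end as well. Grey is Ctr and green is Clp1_KD, and the 5 members with the most reads have nearly the same ratio in both, from 0.44 and 0.4 (Btg2) to 1.28 and 1.24 (Aplp2).

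Of 20 listed genes of the 3' end processing machinery, some of which are themselves known for alternative poly(A) sites, 7 were members. All 7 were measured, 2 were higher and 2 lower, with a median change of 0.41, beside 0.00 over all measured members. Rbbp6, a ubiquitin ligase tied to the cleavage factors (chromosome 7, 130122531 to 130123695), had 153 upstream and 2 distal reads in Ctr and 153 and 94 in the knockdown, a change of 5.24 (3.61 to 8.64). Wdr33, a subunit that binds the hexamer, had a ratio of 0.0423 (0.03 to 0.0583) and 0.097 (0.0822 to 0.114), a change of 1.19 (0.67 to 1.75). Scaled distal reads of Rbbp6 changed by 5.18 on the log2 scale and its upstream reads by -0.38, and the ratio of Wdr33 was low in both libraries.

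Fip1l1, which tethers poly(A) polymerase to the cleavage complex, had 0.567 (0.445 to 0.726) and 0.193 (0.16 to 0.233), a change of -1.55 (-2.00 to -1.10). Cstf3, a scaffold of the cleavage stimulation factor (chromosome 2, 104449585 to 104451563), had 0.864 (0.703 to 1.07) and 0.373 (0.312 to 0.449), a change of -1.21 (-1.61 to -0.81). These 2 were the lower members of the list. Cstf2, which binds downstream of the cut, had 0.597 and 1.11 and a change of 0.89 (0.47 to 1.30), under the 2-fold limit. Its intronless copy Cstf2t had 0.957 and 1.02, and Papola, the main nuclear poly(A) polymerase, had 1.07 and 1.41 (change 0.41, -0.18 to 0.97). No gene of the microRNA pathway list was a member.

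Genes that act on mRNA after processing had 5 members on the list of decay and deadenylation, with 1 lower and 0 higher (median -0.14), and the lower one was Lsm1, given above. Of 5 members among AU-rich element and other 3'UTR-binding proteins, 4 were measured and 2 were lower, with a median of -0.90 beside -0.30 over the 18 listed regions of all lengths. Tia1, which binds U-rich sequence and represses translation (chromosome 6, 86382173 to 86383397), had a ratio of 0.315 (0.248 to 0.397) in Ctr and 0.0632 (0.046 to 0.0849) in the knockdown. Qk, the RNA-binding protein quaking (chromosome 17, 10399336 to 10401458, minus strand), had 1.26 (1.02 to 1.56) and 0.528 (0.468 to 0.596). Reads upstream of the last exon were higher in the knockdown for both, by 1.04 (Tia1) and 0.78 (Qk) on the log2 scale. With 5'UTR and earlier exons as the reference in place of the upstream part, Qk (change -0.38) was no longer called. None of 12 splicing regulators was called (median 0.11).

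Of 11 genes with well described alternative 3'UTRs, 2 were lower and 0 higher (median 0.02), namely Cstf3 and the kinase gene Pak1, which had 3.25 (1.36 to 10.2) and 0.691 (0.537 to 0.898). With the other reference Pak1 (-0.66) was not called. Of 15 ubiquitin ligases and proteases, 3 were higher and 2 lower (median -0.05). Smurf2, a ligase that acts on TGF-beta receptors (chromosome 11, 106681380 to 106683506, minus strand), had 0.54 (0.413 to 0.71) and 1.31 (0.995 to 1.76), whereas Mdm4, an inhibitor of p53 (chromosome 1, 134886422 to 134887931, minus strand), had 1.73 (1.42 to 2.13) and 0.468 (0.398 to 0.55). The mitochondrial ligase gene Marchf5 had 0.0607 and 0.0297, a change of -1.03 (-1.33 to -0.72). The other higher ones, Cul4b (0.244 and 0.624) and Wwp1 (0.0614 and 0.167), lay outside the naming rule and were looked up after their values were seen. Of these 5, Smurf2 (0.91), Marchf5 (-0.86) and Wwp1 (0.48) were not called with the other reference.

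Of 15 Rab and Arf GTPases of vesicle traffic, 1 was higher and 1 lower (median 0.09). Arf6, a GTPase of the cell surface, was among the most covered members called, with 6757 upstream and 207 distal reads in Ctr and 6074 and 927 in the knockdown, a change of 2.31 (2.09 to 2.55). Rab23, a regulator of Hedgehog signalling, had 0.509 (0.376 to 0.686) and 0.121 (0.0497 to 0.257), and was not called with the other reference (-0.91). Of 3 members in TGF-beta, BMP and activin signalling, the ligand gene Tgfb2 (chromosome 1, 188447065 to 188448104, minus strand) was lower, with 1.07 (0.782 to 1.45) and 0.319 (0.254 to 0.398).

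Thymic epithelial and mTEC genes held 4 members, of which 1 was higher and 1 lower. The higher one was the transcription factor gene Elf5, under the read limit for naming and looked up afterwards, with 11 upstream and 0 distal reads in Ctr and 3 and 29 in the knockdown. Cd86, a costimulatory ligand of mature mTEC, had 25 upstream and 546 distal reads in Ctr and 41 and 203 in the knockdown, a ratio of 2.51 (1.69 to 3.92) and 0.57 (0.406 to 0.818). Of 6 members among epithelial junction and polarity genes, Dlg1, a scaffold of basolateral polarity, was higher, with 0.386 (0.283 to 0.531) and 1.36 (1.12 to 1.67), but had a change of -0.04 with the other reference. Of 5 interferon-stimulated members, 2 were higher: Samhd1, a nucleotide phosphohydrolase, with a change of 1.25 (0.52 to 2.04), and the RNA sensor gene Ifih1 with 1.12 (0.08 to 2.34). The lists of the unfolded protein response (2 members), immediate early and heat shock genes (2) and the cell cycle (3) had no call, Mdm4 was the only call among 6 p53 and apoptosis members, and the RANK, CD40 and NF-kB list had no member.

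Members on the lists of other cell types were 3 of thymocytes, 2 of dendritic cells and macrophages, 2 of endothelium and 2 of fibroblasts and mural cells, with none of B cells or red cells. In thymocytes, Themis, a regulator of T cell receptor signals, was higher (0.319 and 1.09), while the coreceptor gene Cd8a (0.0581 and 0.0166) and Arpp21 (1.43 and 0.394) were lower. The endothelial genes Ptprb (2.21 and 0.766) and Flt1 (5.04 and 2.45) were both lower. The direction turned with the other reference for Arpp21 (0.29) and Flt1 (1.51). Pdgfra had 2 upstream and 109 distal reads in Ctr and 2 and 0 in the knockdown. Over measured regions of all lengths the lists had calls in both directions. In thymocytes 2 of 12 were higher and 2 lower (median 0.26), and in endothelium 3 of 7 were higher and 2 lower (median 1.30). In fibroblasts and mural cells 3 of 14 were higher and 1 lower (median 0.49). Markers of these cells differed between the libraries, as given above, and their part in these values was not tested. Over all lists together 104 members were measured, of which 11 were higher and 16 lower, beside 15.4% and 14.6% of all measured members.

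Expression was measured from reads that do not enter the ratio, those upstream of the last exon (5'UTR and earlier exons). They were scaled by size factors (0.877 for Ctr, 1.14 for the knockdown). The median log2 change was 0.12 (0.07 to 0.17) over 1726 members with at least 50 such reads, and 0.07 over 5573 regions of all lengths. Of these members 17.1% were at least 2-fold higher and 13.0% lower, beside 16.2% and 13.5% of all regions. Members whose ratio was lower had a median expression change of 0.38 (0.19 to 0.52, n = 242). Those whose ratio was higher had -0.04 (-0.20 to 0.07, n = 265), and those not called had 0.12 (0.05 to 0.18, n = 1209). Thus 26.9% of members with a lower ratio had at least 2-fold more reads upstream of the last exon, against 14.3% of those with a higher ratio. The 2 measures are not independent, because the denominator of the ratio counts reads of the same transcripts. In members with at least 100 last-exon reads, that denominator had a median change of 1.03 in lower and -0.21 in higher calls. The order was the same over all lengths, with medians of 0.26 for a lower ratio, 0.07 for uncalled regions and -0.08 for a higher ratio. It was also the same in members with 1000 reads or more, at 0.25, 0.12 and -0.14, whereas at 100 to under 1000 reads the higher (0.05) and uncalled (0.08) members were alike and only the lower ones stood apart (0.45). At 20 to under 100 reads the order was another, at -0.21 (n = 10), 0.10 (n = 44) and -0.96 (n = 11) for lower, uncalled and higher members. In bulk RNA, fewer cells of a type and less RNA per cell cannot be told apart.

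The list of Aire-sensitive genes, selected in other libraries by the effect of an Aire knockout, named 206 of the member genes. Of these 165 (80.1%) were measured, against 98.4% of 1828 other members, and they had a median of 168.0 last-exon reads against 1000. Their median ratio stood at 0.326 (n = 130) in Ctr and at 0.358 (n = 148) in the knockdown, beside 0.526 and 0.549 for other members. Their median change was -0.09 (-0.30 to 0.20), with 32 higher (19.4%) and 30 lower (18.2%), and for the others 0.01 (-0.03 to 0.05) with 15.0% and 14.3%. Aire-sensitive members were called in both directions. Their median ratios and their median reads were both lower than those of other members. At 100 reads or more the median ratios were 0.477 (Ctr) and 0.436 (knockdown), beside 0.537 and 0.554 for other members. The part of read number in this difference was not tested.

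By read level the library medians of Aire-sensitive members changed. At 20 to under 100 reads their median ratio was 0 (n = 31) in Ctr and 0.28 (n = 49) in the knockdown, at 100 to under 1000 reads 0.388 and 0.352 (n = 83 in each library), and at 1000 or more 0.57 and 0.721 (n = 16). At the lowest of these levels 33 of 61 had no distal read in Ctr and 15 in the knockdown, and 30 had no upstream read in Ctr and 12 in the knockdown, so the medians rest on different genes. Other members had 0.0272 and 0.37 at that level, 0.398 and 0.484 at 100 to under 1000 reads, and 0.615 and 0.601 at 1000 or more, so that at the highest level the Aire-sensitive median was below the others in Ctr and above them in the knockdown. At 100 to under 1000 reads 23 of 88 were higher (26.1%) and 16 lower (18.2%), beside 23.3% and 22.1% of other members. At 1000 or more 0 of 16 were higher and 3 lower, beside 7.78% and 7.22% of other members, and 16 members are few for such shares. The difference between the library medians of Aire-sensitive members thus varied in direction between the levels. Compared member by member, their median changes from the lowest level up were 0.30 (-1.14 to 1.71), -0.13 (-0.30 to 0.20) and -0.11 (-0.48 to 0.32). Each of these intervals included 0 and reached to both sides of it, so neither a shift nor its absence is shown at any level. The intervals are across regions and not across replicates.

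The Aire-sensitive members with the most reads among those called were Ablim3, Rd3 and Tmem45a (higher) and Tspan15, Sftpa1 and Pla2g2d (lower). Ablim3, an actin-binding LIM protein, had 146 upstream and 684 distal reads in Ctr and 4 and 83 in the knockdown, from 0.771 (0.644 to 0.929) to 3.42 (1.29 to 12.8), while its reads upstream of the last exon fell from 820 to 27. Rd3, a photoreceptor protein that inhibits guanylate cyclase, had 0.0408 (0.0263 to 0.0606) and 0.119 (0.0924 to 0.153). Tmem45a (chromosome 16, 56805274 to 56806377, minus strand) had 340 and 0 reads in Ctr and 434 and 11 in the knockdown, at least 1.95-fold higher.

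Tspan15, a tetraspanin partner of the protease ADAM10 (chromosome 10, 61648144 to 61650115, minus strand), had 659 upstream and 400 distal reads in Ctr and 526 and 77 in the knockdown, a change of -2.04 (-2.46 to -1.65). Sftpa1, the lung surfactant protein A gene, had 0.321 (0.286 to 0.361) and 0.0906 (0.0734 to 0.111). Pla2g2d, a secreted phospholipase, had 0.564 (0.475 to 0.669) and 0.198 (0.163 to 0.239). The intervals of the 2 libraries did not overlap in any of these 3. Expression of Aire-sensitive members from reads upstream of the last exon had a median of -0.41 (-0.85 to 0.03, n = 101), with 35.6% at least 2-fold lower, against 0.13 (0.09 to 0.19, n = 1625) and 11.6% of other members. These 2 groups were not matched by number of reads. The part of read number and of other cell types in this contrast was not tested.

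The poly(A) signal at the proximal site went with the level of the ratio, while its median change was near 0 with each signal. In placed members with at least 100 reads, those with AATAAA before the proximal site (n = 377) had a median ratio of 0.292 in Ctr and 0.295 in the knockdown. Those with ATTAAA only (n = 163) had 0.397 and 0.439, and those with neither (n = 543) had 0.786 and 0.787. The order was the same in both libraries, and AATAAA at the proximal site went with fewer reads beyond it. The median changes were -0.02 (-0.16 to 0.08), -0.13 (-0.24 to 0.04) and 0.00 (-0.07 to 0.05). The order also held at 1000 reads or more, with 0.421, 0.68 and 0.823 in Ctr and 0.357, 0.592 and 0.82 in the knockdown, and in regions of 200 to under 1000 bp with 0.258, 0.448 and 0.847 in Ctr. Calls were more frequent with AATAAA (20.4% higher and 18.8% lower) than with neither (12.2% and 11.8%), and members with AATAAA had a median of 828.0 last-exon reads against 1149.

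**Figure D5:**
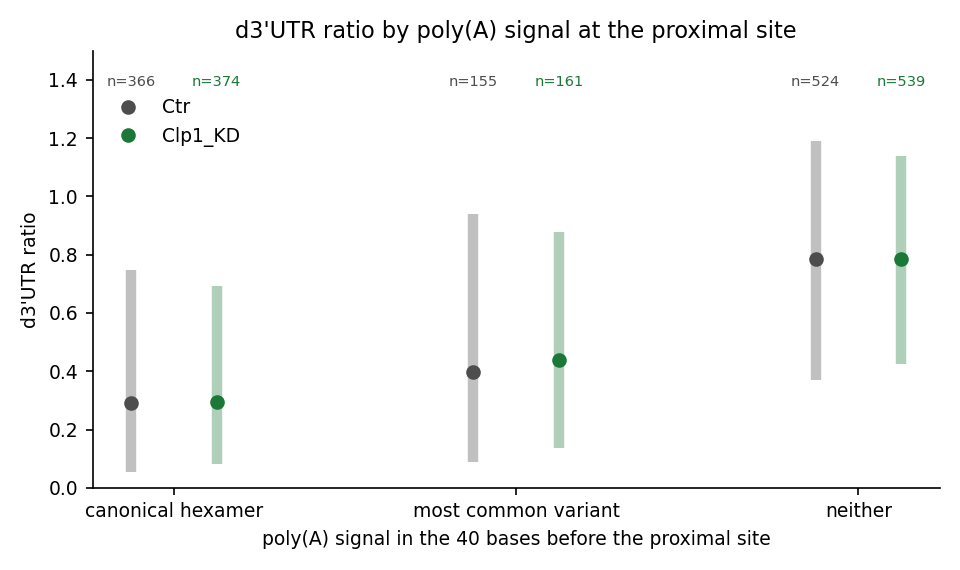
Median d3'UTR ratio (dots) and the range of the middle 50% (bars) in each library for placed members with at least 100 last-exon reads, grouped by the poly(A) signal in the 40 bases before the proximal site: the canonical AATAAA, the variant ATTAAA without the canonical one, or neither. The medians go up from the canonical signal (0.292 in Ctr and 0.295 in Clp1_KD) to neither (0.786 and 0.787), with little difference between libraries.

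At the annotated end the order was the opposite. Members with AATAAA there (n = 681) had a median ratio of 0.661 in Ctr and 0.627 in the knockdown, those with ATTAAA only (n = 181) 0.492 and 0.527, and those with neither (n = 221) 0.38 and 0.382. Taken over both sites, members with neither signal at the proximal site and AATAAA at the end (n = 342) had 0.82 in both libraries, whereas those with AATAAA at the proximal site and neither at the end (n = 71) had 0.157 and 0.24. Matching the hexamer is a description of these windows, and no match says only that these letters are not in them.

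Values by length within the class were close to each other. Among members with at least 100 reads, those of 1000 to under 1500 bp had medians of 0.553 and 0.567 (n = 831), those of 1500 to under 2000 bp 0.51 and 0.55 (n = 572), and those of 2000 bp or more 0.51 and 0.506 (n = 415). Their median changes were 0.02 (-0.03 to 0.06), 0.05 (-0.03 to 0.12) and -0.10 (-0.20 to -0.02), so only the longest had an interval that left out 0. In 4 groups of near equal size by GC content of the distal part, median changes in placed members with at least 100 reads ranged from -0.07 to 0.05, each with an interval that included 0. In the 29 measured members within 10 bp of the lower bound the medians were 0.311 and 0.407, beside 0.309 and 0.478 in the 16 regions just under it. In the 8 members within 10 bp of the upper bound they were 0.242 and 0.518, beside 0.662 and 0.772 in the 8 regions just over it. The distal part overlapped an exon of another gene on the opposite strand in 10.3% of placed members and on the same strand in 0.983%, and the use of strand in counting is not given. Members with such an overlap (n = 128 with at least 100 reads) had 0.58 and 0.65 and calls of 11.7% higher and 15.6% lower, and those without (n = 955) had 0.545 and 0.553 with 16.0% and 14.8%.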

How the data were processed

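Total RNA of sorted Clp1_KD (GFP plus) and Ctr (GFP minus) mTEChi was made into libraries with the Smarter Ultra Low Input and Nextera kits and sequenced single-end on an Illumina NextSeq. Per the submitters' processing notes, reads were mapped to mm9 with Bowtie 1.0.0 and counted with bedtools. The deposited values are raw counts of reads that lie fully within a feature, with the length of each feature in bp, which the authors cut at the most proximal site of PolyA_DB 2. Strand use in counting and removal of duplicates in these libraries are not given in the sources used here. The authors' table of differential expression (DESeq fold changes and p-values) was not used.

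The d3'UTR ratio, its change (0.5 reads added to each part), exact conditional intervals of the odds ratio (R 4.3.3, fisher.test, intervals only) and Clopper-Pearson intervals of shares (scipy 1.17.1) were computed for every region, and only members are shown. Members needed 20 last-exon reads, and 50 reads upstream of the last exon for expression, scaled by median-of-ratios size factors. Where a part had 0 reads, the fold is a bound, the smaller of the fold with 3 reads put in the empty part and the near end of the exact interval. Interval coverage and calls were checked on reads simulated with counting error only. Such a check cannot tell how the intervals perform on amplified reads, which are not independent molecules.

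With at least 100 last-exon reads, the named genes were the 10 higher and 10 lower calls whose interval bound lay farthest from 0 and up to 3 such calls of each of 23 gene lists (marker lists included), together with the 5 members with the most reads, the 3 Aire-sensitive calls with the most reads in each direction, all members in 3' end processing and microRNA lists, and Clp1. The members and lists were chosen with earlier results of these data known. Symbols came from RefSeq by transcript identifier (43 members had none). Members were placed on NCBIM37 (mm9) with GENCODE vM1 where 1 last exon of the gene had the counted length within 2 bp; sequence windows are printed only where the length matched exactly. The list of Aire-sensitive genes came from the study, by identifiers only. Comparisons are descriptions of 2 libraries, without p-values. Alternatives covered the read minimum, added reads, transcripts, the reference part, marker genes, fold limits and scaling.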

Additional observations from a re-analysis of the deposited data

How the results depend on the processing

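No paired analysis was possible because each group had 1 library, and for the same reason no replicate could be left out. Except in the subset of placed members below, the counts of higher and lower members stayed within 1.5 times of 302 and 287, the lowest being 215 and 210 with a 3-fold limit and the highest 418 and 395 with a 1.5-fold limit. The median change of members stayed between 0.00 and 0.01, except that with 5'UTR and earlier exons in place of the upstream part of the last exon as the reference it was 0.12, with 378 higher and 267 lower of 1928 members. With that reference the 2 directions were thus not near equal, and its shares over all distal 3'UTRs are not given. The cause was not tested. With alternatives chosen after seeing the data, 1 member per set of equal counts left 300 higher and 272 lower, and among only those placed members whose distal part overlaps no exon of another gene 167 were higher and 154 lower of 1041, fewer because fewer members were included. The log2 ratio of the library medians was 0.05, and between 0.03 and 0.21 otherwise. The median change of Aire-sensitive members (-0.09) ranged from -0.13 to 0.14, within the interval of the main value and on both sides of 0. The median expression change of members was between 0.10 and 0.14. No named member that was called lost its call or changed direction with 1 read added. With the other reference 6 of them lost the call, namely Qk (-0.38), Pak1 (-0.66), Marchf5 (-0.86), Smurf2 (0.91), Rab23 (-0.91) and Wwp1 (0.48), and the change of 3 turned, namely Dlg1 (-0.04), Arpp21 (0.29) and Flt1 (1.51). Depth limits the members with under 100 reads, where ratios of 0 are frequent.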
